A study of Homo sapiens with 9 samples.

Results

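Transcripts of glucose transport, glycolysis, lactate export, pyruvate dehydrogenase kinase and glycogen metabolism were examined in Jurkat, a cell line grown from a T-cell acute lymphoblastic leukaemia, with and without CRISPR/Cas9 editing of EZH2. The group holds 37 genes, taken by symbol from a table with 26190 rows of values, and all 37 symbols had a row. The libraries were 3 of the edited line labelled KO1, 3 of the edited line labelled KO2 and 3 of the unedited line, labelled WT, and the design text calls each set biological triplicates. All lines were kept in complete RPMI with fetal bovine serum and antibiotics, and polyadenylated RNA came from exponentially growing cells. The sources used here do not say whether either edited line is 1 clone or a pool, which part of EZH2 was edited, or how long the lines were kept apart. Each edit is thus 1 line, and p-values measure the spread between libraries of a line, not between independent edits.

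Glycolysis splits glucose into pyruvate in the cytosol, and lactate dehydrogenase and the monocarboxylate transporters turn pyruvate into exported lactate. Glucose enters through carriers of the SLC2A family, and phosphofructokinase, tuned by the PFKFB enzymes, controls the flow through the upper part of the pathway. Many steps have several isoforms, of which some are ubiquitous and others are induced by hypoxia-inducible factor (HIF) or by MYC, and leukaemic T cells are known for high glycolytic rates. Pyruvate dehydrogenase kinases hold pyruvate back from the mitochondria, and glycogen synthase, the branching enzyme and the phosphorylases store and release glucose.

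Values are FPKM, which correct fragment numbers for the length of the transcript and the size of the library, so levels of different genes can be set beside each other. Fold changes are differences of log2(FPKM + 1) ± SE, a scale that makes changes of low genes look smaller, and come from limma fitted to all 11737 genes with at least 1 FPKM in 3 or more libraries. Adjusted p-values are Benjamini-Hochberg values over all of those genes, with 0.05 as the threshold. FPKM summed to between 417737 and 439704 per library. The number of reads is unknown, but steps between low values put the depth of the libraries at 0.964 to 1.16 times that of WT replicate 3. EZH2 itself, the methyltransferase of Polycomb repressive complex 2, stood at 108, 107 and 103 FPKM in KO1 and 87.9, 89.9 and 90.7 FPKM in KO2, against 74.4, 77.6 and 79.5 FPKM in WT, higher in every edited library. A level over the whole transcript does not check a small edit, so the directions below rest on the labels. All 11 T-cell markers examined were at 1 FPKM or more in every library. They summed to 1360 to 1490 FPKM in KO1 and 1580 to 1620 FPKM in KO2, against 1590 to 1690 FPKM in WT. Within this sum some markers were higher and others lower in the edited lines than in WT, and not every marker moved the same way in both lines. Of the B-cell markers, MS4A1 and PAX5 stayed under 1 FPKM, whereas CD79A ran from 19.1 to 58.2 FPKM. The 4 B-cell markers summed to 48.6 to 58.2 FPKM in KO1 and 19.2 to 22.2 FPKM in KO2, against 24.5 to 29 FPKM in WT. The 4 myeloid markers together stayed at 0.892 to 1.1 FPKM in KO1 and 1.04 to 1.47 FPKM in KO2, against 2.54 to 3.27 FPKM in WT, and the natural killer markers were at or near 0. Of the erythroid markers, HBG1 was at 0 in every library, and HBB was at 0 in all but 2 KO1 libraries, where it reached 1.08 FPKM. The 4 fibroblast or epithelial markers summed to 1.34 to 1.77 FPKM in KO1 and 1.3 to 1.61 FPKM in KO2, against 0.449 to 0.61 FPKM in WT. The part of these markers in the results was not tested.

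Most of the pathway was lower in both edited lines. Of the 37 genes, 34 passed the filter on low values, and PFKFB1, PGAM4 and FBP1 did not. PYGL passed it through the edited libraries alone. In KO1, 26 of the 34 fell and 5 rose, against a background over all tested genes of 31.9% lower and 35.6% higher. In KO2, 25 fell and 5 rose, against a background of 26.6% lower and 38.1% higher. The median log2 fold change over the 34 was -0.94 in KO1 and -0.84 in KO2, beside 0.02 and 0.06 over all tested genes. In KO1, 15 of the 34 fell by at least 1 on the log2 scale, beside 2.85% of all tested genes, and in KO2 12 did, beside 2.16%. Falls in both lines were counted for 25 genes (22.3% of all tested genes) and rises in both for 5 genes (30% of all tested genes). The 6 edited libraries all lay below the 3 WT libraries for 24 genes (23.8% of all tested genes) and above them for 5 genes (30.7% of all tested genes). Both comparisons use the same WT libraries, so the lines are given side by side and their likeness is not a result. In RNA from bulk culture, fewer cells of a type and less RNA per cell cannot be told apart.

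**Figure D1:**
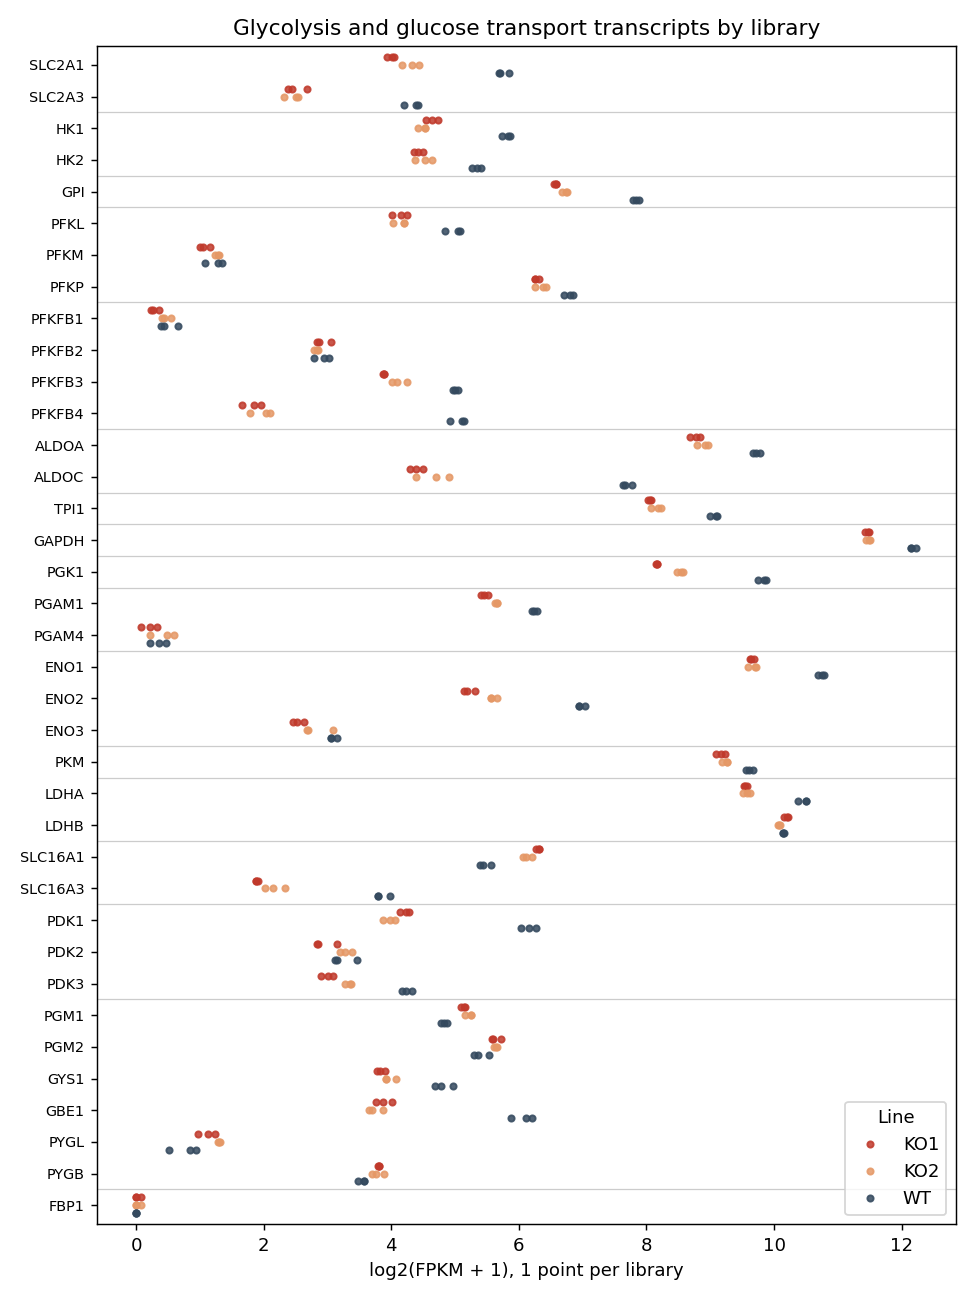
Level of each of the 37 genes in each library, as log2(FPKM + 1), ordered by step of the pathway, with 1 point per library and KO1, KO2 and WT from top to bottom in each row. WT points lie to the right of the edited lines from SLC2A1 to LDHA for most genes, while SLC16A1, PGM1, PGM2, PYGL and PYGB show the opposite order.

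**Figure D2:**
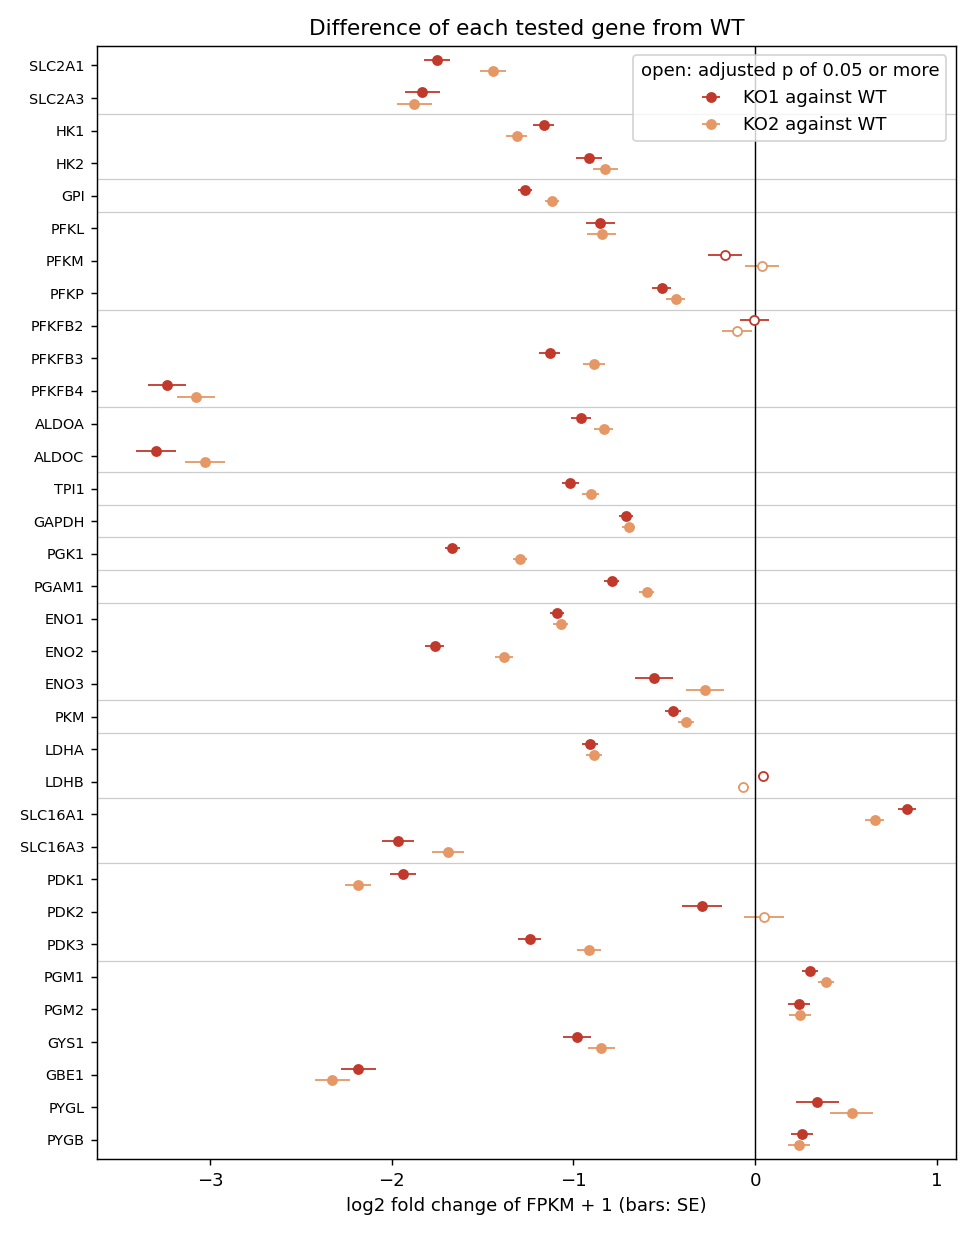
Log2 fold change of FPKM + 1 with its SE for the 34 tested genes in KO1 and KO2 against WT, with open points for adjusted p of 0.05 or more. ALDOC and PFKFB4 lie furthest to the left in both lines, and SLC16A1 lies furthest to the right.

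HIF binds DNA cores written ACGTG or GCGTG, and the promoters of ALDOC, PGK1, LDHA and LDHB are shown because ALDOC had one of the deepest falls, PGK1 the smallest p in both lines, and LDHA and LDHB, subunits of the same enzyme, behaved differently. They were picked after their values were seen. Each is the 300-base window around the start of the gene in RefSeq on GRCh38.p14, most of it upstream, and is printed 5′ to 3′ on the strand of the gene. Capitals mark every ACGTG or GCGTG on either strand, so CACGT and CACGC are the same cores on the other strand. ALDOC is at chr17:28576846-28577145, minus strand, PGK1 at chrX:78103998-78104297, plus strand, LDHA at chr11:18394313-18394612, plus strand and LDHB at chr12:21657793-21658092, minus strand.
ALDOC: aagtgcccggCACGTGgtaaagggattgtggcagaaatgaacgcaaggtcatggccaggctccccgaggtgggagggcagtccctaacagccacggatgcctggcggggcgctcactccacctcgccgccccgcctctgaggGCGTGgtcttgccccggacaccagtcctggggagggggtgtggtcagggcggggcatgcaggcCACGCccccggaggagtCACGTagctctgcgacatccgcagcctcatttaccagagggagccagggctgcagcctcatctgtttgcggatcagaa
PGK1: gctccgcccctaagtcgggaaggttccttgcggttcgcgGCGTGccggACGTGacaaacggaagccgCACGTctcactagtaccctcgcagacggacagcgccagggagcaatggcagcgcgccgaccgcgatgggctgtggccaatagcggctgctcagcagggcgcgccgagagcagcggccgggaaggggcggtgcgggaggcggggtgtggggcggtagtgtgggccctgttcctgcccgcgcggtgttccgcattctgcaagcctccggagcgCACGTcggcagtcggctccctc
LDHA: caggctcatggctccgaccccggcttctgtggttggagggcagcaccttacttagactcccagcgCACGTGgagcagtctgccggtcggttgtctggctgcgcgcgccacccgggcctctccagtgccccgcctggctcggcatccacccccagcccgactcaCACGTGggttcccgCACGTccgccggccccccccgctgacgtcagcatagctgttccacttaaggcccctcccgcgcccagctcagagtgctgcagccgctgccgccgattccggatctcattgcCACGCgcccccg
LDHB: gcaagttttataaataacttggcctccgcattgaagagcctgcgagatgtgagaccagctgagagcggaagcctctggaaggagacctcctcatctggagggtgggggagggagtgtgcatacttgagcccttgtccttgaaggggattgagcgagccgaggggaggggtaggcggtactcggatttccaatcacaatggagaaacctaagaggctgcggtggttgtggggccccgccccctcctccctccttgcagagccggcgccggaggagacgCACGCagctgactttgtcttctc

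The windows held 5 cores in ALDOC, 4 in PGK1, 6 in LDHA and 1 in LDHB, counting both strands, so that the palindrome CACGTG gives 2 overlapping cores. RefSeq windows were matched for 34 of the 37 genes and not for SLC2A3, PFKFB2 and SLC16A1. At least 1 core was found in 18 of 24 windows (75.0%) of genes that fell in both lines, in 3 of 7 windows (42.9%) of the other tested genes, and in 64.6% of the 8824 windows of all tested genes. For ACGTG alone the shares were 41.7%, 14.3% and 27.5%, and for CACGTG, which holds ACGTG and is the core bound by MYC, 12.5%, 14.3% and 10.7%. The median GC content of the windows was 70.0% for the genes that fell in both lines and 65.7% for all tested genes. The windows of SLC16A3 and PDK1, whose levels were far lower in both lines, held no core, while those of PGM2 and PYGB, which rose in both lines, held 4 and 3. These matches describe letters and not bound sites. The PDK1 window had a GC content of 36.3%, and which start each gene uses in these cells was not tested.

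Glucose uptake had the largest loss of summed FPKM, in percent, of all steps in each edited line. SLC2A1 stood at 15.5, 15.1 and 14.3 FPKM in the KO1 libraries and 19, 20.6 and 16.9 FPKM in the KO2 libraries, against 51.3, 56.5 and 50.8 FPKM in the WT libraries. The edited libraries lay far below WT without overlap. This gene, which encodes the basal glucose carrier GLUT1, had log2 fold changes of -1.75 ± 0.07 in KO1 (adjusted p = 8.39e-09) and -1.44 ± 0.07 in KO2 (adjusted p = 4.95e-08). The high-affinity carrier gene SLC2A3 stood at 4.21, 4.41 and 5.43 FPKM in the KO1 libraries and 4.83, 4.67 and 4.0 FPKM in the KO2 libraries, against 20.4, 19.8 and 17.3 FPKM in the WT libraries. Its log2 fold changes were -1.83 ± 0.10 in KO1 (adjusted p = 5.75e-08) and -1.88 ± 0.10 in KO2 (adjusted p = 7.67e-08). The sum of both carriers was 72.7% lower in KO1 and 67.6% lower in KO2. Of that sum, GLUT1 transcript made up 76.2% ± 3.24 in KO1 and 80.7% ± 0.918 in KO2, against 73.4% ± 1.6 in WT, with overlapping libraries in KO1 and none in KO2. Isoform shares like this one are given as mean ± SD over 3 libraries, and no test of a share was run, since the smallest p of an exact two-sided permutation test of 3 against 3 libraries is 0.1.

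Both hexokinases, which trap glucose as glucose 6-phosphate, fell in both lines. HK1 stood at 25.6, 23.9 and 22.4 FPKM in the KO1 libraries and 22.2, 22 and 20.3 FPKM in the KO2 libraries, against 52.2, 56.9 and 55.7 FPKM in the WT libraries. HK2 stood at 19.5, 20.5 and 21.5 FPKM in the KO1 libraries and 22.1, 24 and 19.7 FPKM in the KO2 libraries, against 41.2, 39.7 and 37.6 FPKM in the WT libraries. No edited library of either gene reached the WT range. Log2 fold changes of HK1 were -1.16 ± 0.06 in KO1 (adjusted p = 4.05e-08) and -1.31 ± 0.06 in KO2 (adjusted p = 2.84e-08), and those of HK2, the inducible isoform, were -0.92 ± 0.07 in KO1 (adjusted p = 8.89e-07) and -0.82 ± 0.07 in KO2 (adjusted p = 2.61e-06). Of their sum, HK1 supplied 53.9% ± 2.9 in KO1 and 49.6% ± 1.51 in KO2, against 58.2% ± 2.02 in WT, and its share was below all WT libraries in KO2 but overlapped them in KO1. The next enzyme, glucose phosphate isomerase, had a tight fall: GPI was at 95.3, 94.4 and 92.8 FPKM in KO1 and 107, 106 and 101 FPKM in KO2, against 228, 235 and 221 FPKM in WT, with log2 fold changes of -1.27 ± 0.04 in KO1 (adjusted p = 8.6e-10) and -1.12 ± 0.04 in KO2 (adjusted p = 3.96e-09).

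The 3 phosphofructokinase subunit genes did not move alike. The platelet-type PFKP dominated in every library, at 78.4, 75.5 and 75.5 FPKM in KO1 and 81.8, 85.3 and 75.1 FPKM in KO2, against 104, 114 and 111 FPKM in WT, with log2 fold changes of -0.51 ± 0.05 in KO1 (adjusted p = 8.33e-06) and -0.44 ± 0.05 in KO2 (adjusted p = 3.32e-05). The liver-type PFKL stood at 17.9, 16.7 and 15.2 FPKM in KO1 and 17.4, 17.3 and 15.4 FPKM in KO2, against 27.7, 32.8 and 32 FPKM in WT, and had log2 fold changes of -0.85 ± 0.08 in KO1 (adjusted p = 4.55e-06) and -0.84 ± 0.08 in KO2 (adjusted p = 6.26e-06). PFKM, the muscle type, was close to the detection filter, at 1.1 ± 0.125 FPKM in KO1 and 1.42 ± 0.0527 FPKM in KO2, against 1.36 ± 0.217 FPKM in WT (SD, n = 3 each). It did not pass in either line (-0.17 in KO1 and 0.04 in KO2; adjusted p = 0.134 and 0.745), but did in KO1 after quantile normalization (-0.41, adjusted p = 0.00517) and without WT replicate 3 (-0.24, adjusted p = 0.0485). Of the summed subunits, PFKP supplied 81.2% ± 1.01 in KO1 and 81.7% ± 0.351 in KO2, against 77.3% ± 0.63 in WT, and both edited lines lay above all WT libraries in this share.

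The PFKFB family, bifunctional enzymes that make and remove fructose 2,6-bisphosphate, the activator of phosphofructokinase, held one of the deepest falls and a gene near its WT level. PFKFB4 stood at 2.58, 2.88 and 2.15 FPKM in the KO1 libraries and 3.29, 3.12 and 2.45 FPKM in the KO2 libraries, against 33.4, 34.3 and 29.1 FPKM in the WT libraries. All 6 edited libraries of this isoform lay far under WT. It fell by 3.24 ± 0.11 in KO1 and by 3.08 ± 0.11 in KO2 on the log2 scale (adjusted p = 1.89e-09 and 4.76e-09). PFKFB3, an isoform with far more kinase than phosphatase activity, stood at 13.8, 13.6 and 13.7 FPKM in KO1 and 16, 18.1 and 15.2 FPKM in KO2, against 31.1, 32 and 30.4 FPKM in WT, with log2 fold changes of -1.13 ± 0.06 in KO1 (adjusted p = 5.86e-08) and -0.89 ± 0.06 in KO2 (adjusted p = 4.88e-07). PFKFB2 overlapped between all lines, at 6.1, 7.34 and 6.27 FPKM in KO1 and 6.19, 5.88 and 6.13 FPKM in KO2, against 5.91, 6.72 and 7.13 FPKM in WT, and did not pass (-0.00 in KO1 and -0.10 in KO2; adjusted p = 0.975 and 0.308). PFKFB1, a liver and muscle isoform, stayed under 1 FPKM in every library and was not tested. The make-up of the family differed between the lines: of its summed FPKM, PFKFB4 supplied 11% ± 1.26 in KO1 and 11.4% ± 1.26 in KO2, against 45.7% ± 2.12 in WT, and PFKFB2 supplied 28.5% ± 1.89 in KO1 and 23.6% ± 2.01 in KO2, against 9.37% ± 1.14 in WT. The edited and unedited libraries did not overlap in either share.

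Aldolase, which splits fructose 1,6-bisphosphate, includes a gene with one of the deepest falls in both lines. ALDOC, the brain-type aldolase, was at 21.5, 18.6 and 20 FPKM in KO1 and 29, 24.9 and 19.8 FPKM in KO2. In WT it was at 202, 218 and 198 FPKM. All 6 edited libraries lay far below every WT library. Its log2 fold changes were -3.30 ± 0.11 in KO1 (adjusted p = 2.19e-09) and -3.03 ± 0.11 in KO2 (adjusted p = 6.7e-09). The ubiquitous ALDOA stood at 456, 437 and 411 FPKM in the KO1 libraries and 497, 482 and 444 FPKM in the KO2 libraries, against 813, 881 and 841 FPKM in the WT libraries. It too lay below WT in each edited library, with log2 fold changes of -0.96 ± 0.05 in KO1 (adjusted p = 7.42e-08) and -0.83 ± 0.05 in KO2 (adjusted p = 3.01e-07). Of the aldolase sum, ALDOC supplied 4.41% ± 0.296 in KO1 and 4.9% ± 0.616 in KO2, against 19.6% ± 0.489 in WT. Downstream, triose phosphate isomerase was at 265, 267 and 258 FPKM in KO1 and 299, 288 and 268 FPKM in KO2, against 547, 549 and 507 FPKM in WT, and the log2 fold changes of TPI1 were -1.02 ± 0.05 in KO1 (adjusted p = 2.04e-08) and -0.90 ± 0.05 in KO2 (adjusted p = 7.64e-08). Glyceraldehyde phosphate dehydrogenase had the highest FPKM of the 37 genes in every library. GAPDH stood at 2883, 2852 and 2742 FPKM in the KO1 libraries and 2895, 2885 and 2789 FPKM in the KO2 libraries, against 4536, 4815 and 4534 FPKM in the WT libraries. This gene, often used as a loading control, lay below WT in all 6 edited libraries, with log2 fold changes of -0.71 ± 0.04 in KO1 (adjusted p = 4.85e-08) and -0.70 ± 0.04 in KO2 (adjusted p = 8.99e-08). GENCODE 29 names 62 pseudogenes after GAPDH, and reads shared with such copies could move its level.

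PGK1, on the X chromosome, encodes the kinase of the first ATP-forming step. PGK1 stood at 286, 286 and 282 FPKM in the KO1 libraries and 379, 372 and 355 FPKM in the KO2 libraries, against 937, 922 and 859.7 FPKM in the WT libraries. The 3 lines formed separate ranges, with KO1 lowest and WT highest. Log2 fold changes were -1.67 ± 0.04 in KO1 (adjusted p = 2.94e-10) and -1.29 ± 0.04 in KO2 (adjusted p = 2.45e-09), the smallest adjusted p of the 34 genes in each comparison. PGAM1 stood at 42.8, 44.5 and 41.3 FPKM in the KO1 libraries and 49.7, 49.3 and 48.4 FPKM in the KO2 libraries, against 74.3, 77.2 and 73 FPKM in the WT libraries. PGAM1, the main phosphoglycerate mutase, had log2 fold changes of -0.79 ± 0.04 in KO1 (adjusted p = 4.46e-08) and -0.60 ± 0.04 in KO2 (adjusted p = 4.91e-07). PGAM4, an intronless copy of PGAM1, stayed between 0.0524 and 0.514 FPKM and was not tested. The longest open reading frames of both genes are 765 bases long and 98.3% identical in GENCODE 29 transcripts, so the split of reads between them is uncertain.

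All 3 enolase genes fell in both lines. ENO1, the ubiquitous form, was at 821, 799 and 788 FPKM in KO1 and 839, 829 and 774 FPKM in KO2, against 1727, 1754 and 1649 FPKM in WT, with log2 fold changes of -1.09 ± 0.04 in KO1 (adjusted p = 4.58e-09) and -1.07 ± 0.04 in KO2 (adjusted p = 8.78e-09). ENO2, the neuronal form, stood at 38.6, 34.2 and 35.5 FPKM in KO1 and 49.4, 46.5 and 46.2 FPKM in KO2. In WT it stood at 122, 130.3 and 122 FPKM. It too had 3 separate ranges, lowest in KO1, and log2 fold changes of -1.76 ± 0.05 in KO1 (adjusted p = 8.6e-10) and -1.38 ± 0.05 in KO2 (adjusted p = 8.55e-09). ENO3, the muscle form, was at 4.5, 5.19 and 4.73 FPKM in KO1 and 5.4, 7.48 and 5.44 FPKM in KO2, against 7.35, 7.91 and 7.3 FPKM in WT, where KO2 replicate 2 lay among the WT libraries. Its log2 fold changes were -0.55 ± 0.11 in KO1 (adjusted p = 0.0008) and -0.27 ± 0.11 in KO2 (adjusted p = 0.0405). ENO3 no longer passed in KO2 without WT replicate 1 (-0.29, adjusted p = 0.0601), WT replicate 2 (-0.24, 0.112), WT replicate 3 (-0.29, 0.0637), KO2 replicate 1 (-0.20, 0.146) or KO2 replicate 3 (-0.21, 0.144), with no filter (adjusted p = 0.0838) and with only the groups compared (adjusted p = 0.0585). Annotated exons of ENO3 overlap those of PFN1 on the other strand, and the sources used here do not say whether counting used strand. Of the enolase sum, ENO2 supplied 4.28% ± 0.193 in KO1 and 5.46% ± 0.17 in KO2, against 6.78% ± 0.174 in WT. PKM, which encodes pyruvate kinase of non-liver tissues, had a modest fall. PKM stood at 599, 573 and 546 FPKM in the KO1 libraries and 613, 610.1 and 578 FPKM in the KO2 libraries, against 754, 815 and 779 FPKM in the WT libraries. Its log2 fold changes were -0.45 ± 0.04 in KO1 (adjusted p = 6.43e-06) and -0.38 ± 0.04 in KO2 (adjusted p = 2.71e-05).

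**Figure D3:**
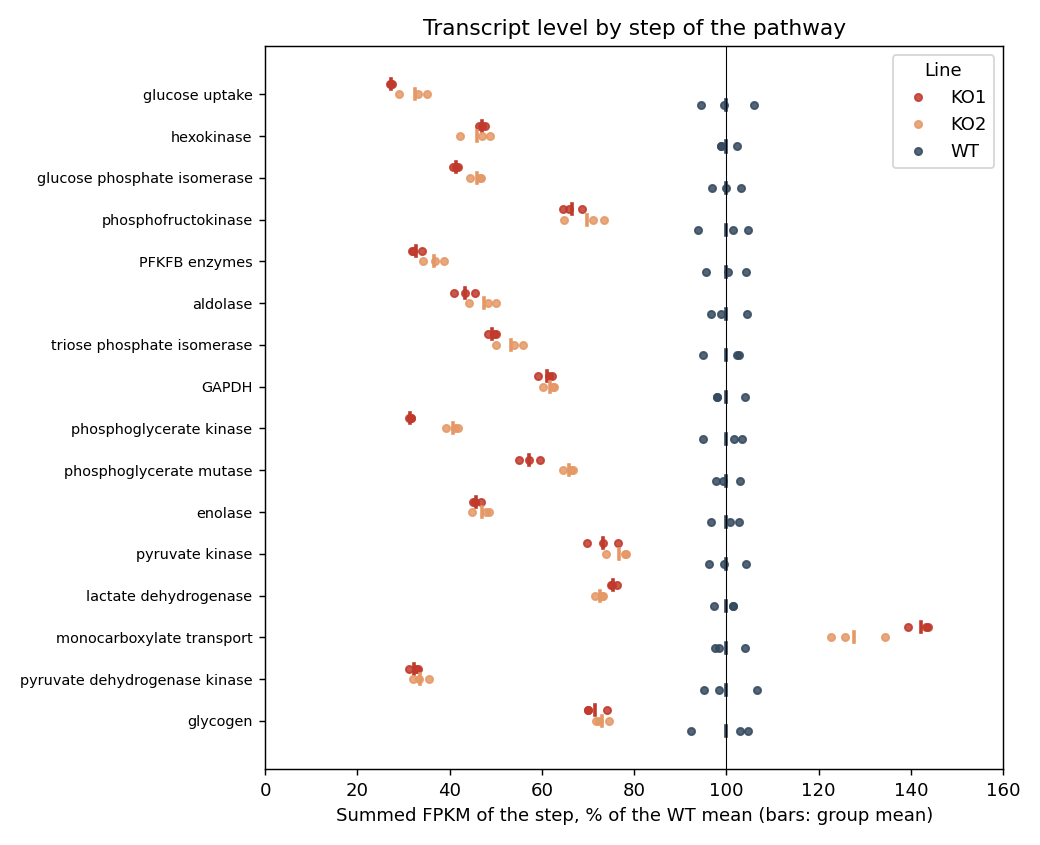
Summed FPKM of each step in each library as a percentage of the WT mean, with KO1, KO2 and WT from top to bottom and bars at group means. The edited lines lie left of WT at every step shown except monocarboxylate transport, where they lie to the right.

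The subunits of lactate dehydrogenase parted. LDHA stood at 745, 735 and 764 FPKM in the KO1 libraries and 788, 764 and 729 FPKM in the KO2 libraries, against 1444, 1442 and 1333 FPKM in the WT libraries. LDHA, the subunit that favours making lactate, had log2 fold changes of -0.91 ± 0.04 in KO1 (adjusted p = 2.21e-08) and -0.89 ± 0.04 in KO2 (adjusted p = 4.3e-08). LDHB, which favours the reverse reaction, had almost the same level in all lines. LDHB stood at 1188, 1172 and 1137 FPKM in the KO1 libraries and 1071, 1087 and 1083 FPKM in the KO2 libraries, against 1128, 1128 and 1135 FPKM in the WT libraries. The spans were narrow, and KO1 lay just above WT and KO2 just below it. Log2 fold changes of LDHB were 0.04 ± 0.03 in KO1 (adjusted p = 0.209) and -0.07 ± 0.03 in KO2 (adjusted p = 0.0735). The KO1 value passed after quantile normalization (0.29, adjusted p = 5.81e-06), while the KO2 value was positive and passed after quantile normalization (0.08, adjusted p = 0.0228) and negative and passed after median centring (-0.11, adjusted p = 0.0124), so no direction is given for LDHB. LDHA was the larger part of the pair in WT and the smaller part in both edited lines, at 39.1% ± 0.949 in KO1 and 41.3% ± 1.08 in KO2, against 55.4% ± 1.23 in WT.

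The monocarboxylate transporters moved in opposite directions. SLC16A1 stood at 76.5, 79 and 78.8 FPKM in the KO1 libraries and 73, 65.7 and 68.4 FPKM in the KO2 libraries, against 46.3, 41.2 and 42.6 FPKM in the WT libraries. SLC16A1 encodes MCT1, a carrier of lactate and pyruvate in both directions. It lay above WT in all 6 edited libraries, with log2 fold changes of 0.84 ± 0.05 in KO1 (adjusted p = 1.89e-07) and 0.66 ± 0.05 in KO2 (adjusted p = 1.52e-06). SLC16A3, which encodes the lactate exporter MCT4, was at 2.77, 2.67 and 2.69 FPKM in KO1 and 3.41, 4.02 and 3.08 FPKM in KO2. In WT it was at 12.9, 14.8 and 12.9 FPKM. Its edited libraries lay far below WT, and its log2 fold changes were -1.97 ± 0.09 in KO1 (adjusted p = 1.44e-08) and -1.69 ± 0.09 in KO2 (adjusted p = 6.63e-08). Of the pair, MCT4 transcript supplied 3.35% ± 0.12 in KO1 and 4.85% ± 0.802 in KO2, against 23.8% ± 2.37 in WT. The summed FPKM of the pair was higher in the edited lines, at 80.8 ± 1.33 FPKM in KO1 and 72.5 ± 3.44 FPKM in KO2, against 56.9 ± 2.02 FPKM in WT (SD, n = 3 each).

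Of the pyruvate dehydrogenase kinases, PDK1 and PDK3 fell in both lines and PDK2 did not. PDK1 stood at 16.6, 17.8 and 18.3 FPKM in the KO1 libraries and 15.6, 14.8 and 13.6 FPKM in the KO2 libraries, against 76.4, 70.5 and 64.2 FPKM in the WT libraries. Log2 fold changes of PDK1 were -1.94 ± 0.07 in KO1 (adjusted p = 4.61e-09) and -2.19 ± 0.07 in KO2 (adjusted p = 3.68e-09). Here KO2 was the lower line. PDK3 stood at 7.49, 6.49 and 7.08 FPKM in the KO1 libraries and 9.22, 8.64 and 9.27 FPKM in the KO2 libraries, against 18.9, 17 and 17.9 FPKM in the WT libraries. PDK3 had log2 fold changes of -1.24 ± 0.06 in KO1 (adjusted p = 5.03e-08) and -0.91 ± 0.06 in KO2 (adjusted p = 6.75e-07). PDK2 was at 6.21, 7.89 and 6.17 FPKM in KO1 and 9.48, 8.71 and 8.19 FPKM in KO2, against 7.84, 7.69 and 9.97 FPKM in WT, with overlapping libraries. It passed in KO1 (-0.29 ± 0.11, adjusted p = 0.0357) and not in KO2 (0.05 ± 0.11, adjusted p = 0.709). PDK2 no longer passed in KO1 without WT replicate 3 (-0.18, adjusted p = 0.142), KO1 replicate 1 (-0.24, 0.111) or KO1 replicate 3 (-0.24, 0.108), with no filter (0.0741), with only the groups compared (0.0571) and with a replicate block (0.0612). Of the summed kinases, PDK1 supplied 56% ± 1.76 in KO1 and 45.1% ± 1.25 in KO2, against 72.6% ± 2.47 in WT.

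**Figure D4:**
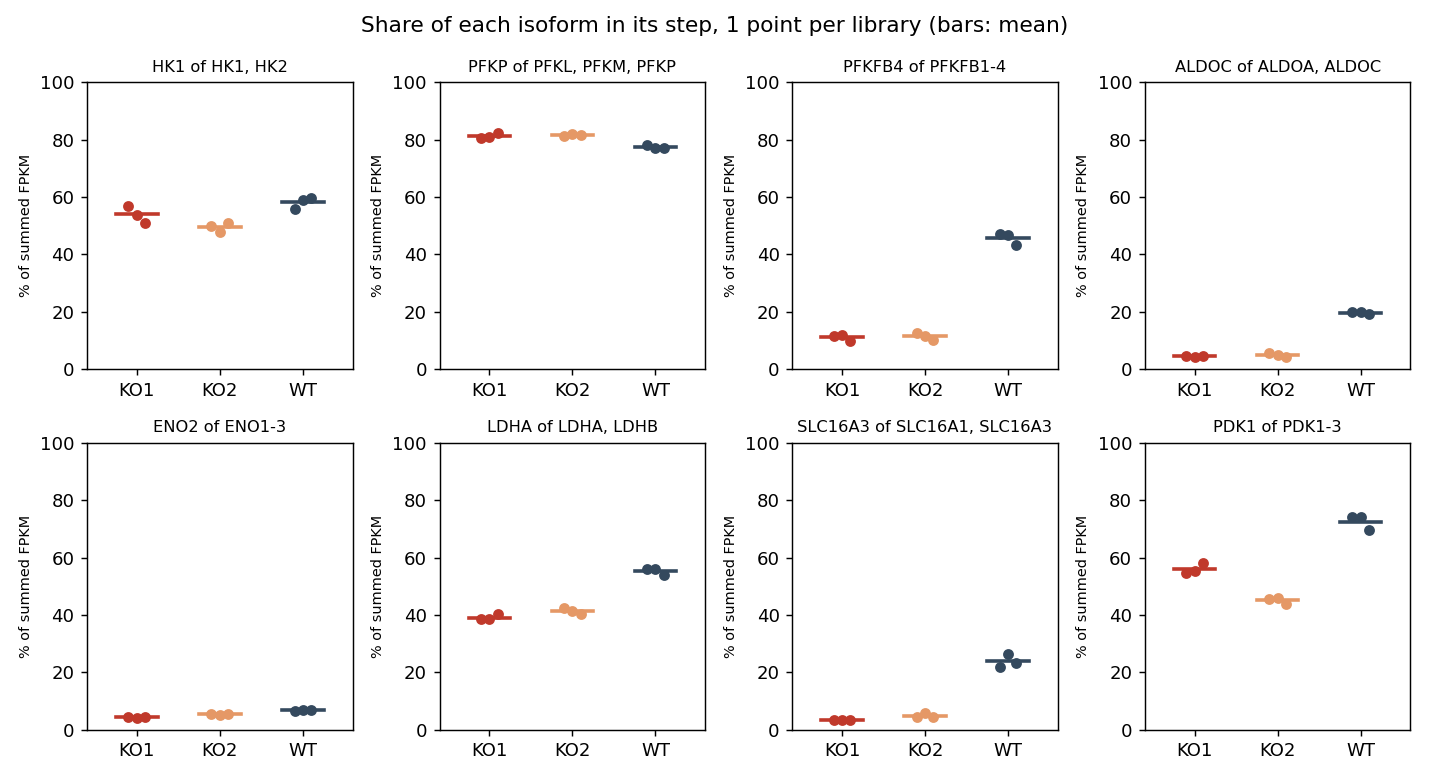
Share of 8 isoforms in the summed FPKM of their step, in percent, with 1 point per library and bars at the mean of KO1, KO2 and WT from left to right. PFKFB4, ALDOC, ENO2, LDHA, SLC16A3 and PDK1 have lower shares in both edited lines than in any WT library.

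Of the 6 genes grouped here with glycogen metabolism, GYS1 and GBE1 fell and the other four rose in both lines. GYS1, glycogen synthase, was at 12.7, 14 and 13.1 FPKM in KO1 and 15.9, 14.1 and 14 FPKM in KO2, against 24.9, 30.2 and 26.5 FPKM in WT, with log2 fold changes of -0.98 ± 0.08 in KO1 (adjusted p = 1.07e-06) and -0.85 ± 0.08 in KO2 (adjusted p = 4.34e-06). The branching enzyme gene GBE1 stood at 12.5, 13.6 and 15.1 FPKM in the KO1 libraries and 13.6, 11.5 and 11.9 FPKM in the KO2 libraries, against 73.2, 67.9 and 57.6 FPKM in the WT libraries. The edited libraries of GBE1 lay far below WT, and its log2 fold changes were -2.18 ± 0.10 in KO1 (adjusted p = 1.41e-08) and -2.33 ± 0.10 in KO2 (adjusted p = 1.57e-08). The phosphorylase PYGB stood at 12.8, 13 and 13 FPKM in the KO1 libraries and 12.5, 12 and 13.8 FPKM in the KO2 libraries, against 10.2, 10.9 and 10.9 FPKM in the WT libraries. This brain-type enzyme was above WT in each edited library, with log2 fold changes of 0.26 ± 0.06 in KO1 (adjusted p = 0.00266) and 0.24 ± 0.06 in KO2 (adjusted p = 0.00447). PYGL, the liver-type phosphorylase, was at 1.36, 0.959 and 1.18 FPKM in KO1 and 1.49, 1.45 and 1.44 FPKM in KO2, against 0.787, 0.919 and 0.436 FPKM in WT. It was under 1 FPKM in all 3 WT libraries and passed the filter through the edited libraries, so that filter favoured a rise. Its log2 fold changes were 0.34 ± 0.12 in KO1 (adjusted p = 0.0238) and 0.53 ± 0.12 in KO2 (adjusted p = 0.00244). The KO1 call of PYGL was lost after quantile normalization (0.04, adjusted p = 0.746) and without WT replicate 3 (0.22, 0.0962), KO1 replicate 1 (0.28, 0.0917) or KO1 replicate 3 (0.34, 0.0564). Its KO2 call was also lost after quantile normalization (0.27, adjusted p = 0.0524). PGM1, which interconverts glucose 1-phosphate and glucose 6-phosphate, was at 34.4, 33 and 34.5 FPKM in KO1 and 36.8, 37.2 and 34.7 FPKM in KO2, against 27.4, 28.3 and 26.5 FPKM in WT, with log2 fold changes of 0.30 ± 0.05 in KO1 (adjusted p = 0.000152) and 0.39 ± 0.05 in KO2 (adjusted p = 2.53e-05). PGM2, which acts mainly on pentose phosphates, was at 47.6, 46.8 and 51.6 FPKM in KO1 and 48.9, 48 and 49.7 FPKM in KO2, against 45.1, 40.1 and 38.1 FPKM in WT, with log2 fold changes of 0.24 ± 0.06 in KO1 (adjusted p = 0.00506) and 0.25 ± 0.06 in KO2 (adjusted p = 0.00468), and so it also rose. FBP1, the gluconeogenic enzyme that opposes phosphofructokinase, was listed at 0 in 7 of the 9 libraries and at 0.0571 FPKM in KO1 replicate 1 and 0.0587 FPKM in KO2 replicate 2.

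Other summed levels by step were as follows. Pyruvate dehydrogenase kinases were 67.6% lower in KO1 and 66.4% lower in KO2, and PFKFB enzymes were 67.3% lower in KO1 and 63.4% lower in KO2. Phosphoglycerate kinase was 68.6% lower in KO1 and 59.3% lower in KO2. Glucose phosphate isomerase, aldolase, enolase and hexokinase stood 52.5% to 58.7% below WT in both lines. At the other end, pyruvate kinase was 26.8% lower in KO1 and 23.3% lower in KO2 and lactate dehydrogenase was 24.6% lower in KO1 and 27.4% lower in KO2. Over the 37 genes together the sum was 7713 ± 160.4 FPKM in KO1 and 7894 ± 218 FPKM in KO2, against 13290.4 ± 383 FPKM in WT. As a share of all FPKM of a library this was 1.84% ± 0.0371 in KO1 and 1.82% ± 0.0382 in KO2, against 3.04% ± 0.0685 in WT (SD, n = 3 each).

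The edited lines were also compared with each other. In KO2 against KO1, 9 of the 34 genes (26.5%) were higher and 3 (8.82%) were lower, beside 18.3% and 12.4% of all tested genes, and 0 of the 34 differed by 1 or more on the log2 scale (0.358% of all tested genes higher and 0.886% lower). The median log2 fold change was 0.10, beside 0.04 over all tested genes. PGK1 (0.37 ± 0.04, adjusted p = 8.1e-05), ENO2 (0.38 ± 0.05, adjusted p = 0.000328), PDK3 (0.33 ± 0.06, adjusted p = 0.00359), PGAM1 (0.19 ± 0.04, adjusted p = 0.00504) and SLC2A1 (0.31 ± 0.07, adjusted p = 0.00787) were higher in KO2 and kept the call under each of the 20 alternatives run. PFKFB3 (0.24 ± 0.06, adjusted p = 0.0116) and GPI (0.15 ± 0.04, adjusted p = 0.0117) were higher too, and the GPI call was lost without KO2 replicate 1 (0.13, adjusted p = 0.0517).

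The remaining differences between the edited lines were less stable. SLC16A3 (0.28 ± 0.09, adjusted p = 0.0339) lost its call on leaving out replicate 1, 2 or 3 of KO1 (adjusted p = 0.0607, 0.0863 and 0.0756) or replicate 1 or 2 of KO2 (0.0696 and 0.126), after median centring (0.0605) and with no filter (0.0666). With 1 library left out its value ran from 0.19 to 0.34. PDK2 (0.34 ± 0.11, adjusted p = 0.038) lost it on leaving out replicate 1 or 3 of KO1 (adjusted p = 0.108 and 0.116) or any library of KO2 (0.123, 0.0846 and 0.0505), after quantile normalization (0.053) or median centring (0.0562), with no filter (0.0811) and with a replicate block (0.07), with values from 0.29 to 0.44. Lower in KO2 were PDK1 (-0.25 ± 0.07, adjusted p = 0.025), SLC16A1 (-0.18 ± 0.05, adjusted p = 0.0264) and LDHB (-0.11 ± 0.03, adjusted p = 0.0177). PDK1 lost its call on leaving out replicate 2 or 3 of KO1 (adjusted p = 0.072 and 0.078) or of KO2 (0.057 and 0.0917), with values from -0.29 to -0.19. SLC16A1 lost it on leaving out the libraries of the same numbers (0.0795 and 0.0679 for KO1, 0.106 and 0.0736 for KO2), with values from -0.22 to -0.14. LDHB lost it on leaving out replicate 1 or 2 of KO1 (0.0593 and 0.0597) or replicate 1 of KO2 (0.0683), with no filter (0.069) and with no trend (0.0697), with values from -0.13 to -0.10. Without KO2 replicate 3, ALDOC (0.41, adjusted p = 0.0055), ALDOA (0.17, 0.0409) and TPI1 (0.16, 0.0329) passed as higher in KO2, and without KO1 replicate 3 HK1 passed as lower (-0.20, 0.0386).

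The tested genes of the pathway lie on 15 chromosomes, with at most 6 on 1 of them, chromosome 12. Their nearest tested neighbours, by RefSeq gene order on GRCh38.p14, were counted to see whether the falls were shared with the genes around them. Of 50 neighbours of the 25 genes that fell in both lines, 20 fell and 13 rose in KO1 (40% lower, beside 31.9% of all tested genes), and 13 fell and 21 rose in KO2 (26.0% lower, beside 26.6%). Their median log2 fold changes were -0.04 in KO1 and 0.10 in KO2. In each line 1 of the 50 fell by 1 or more, near the 2.85% of all tested genes in KO1 and 2.16% in KO2. Of all tested genes, 35.6% rose in KO1 and 38.1% in KO2.

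**Figure D5:**
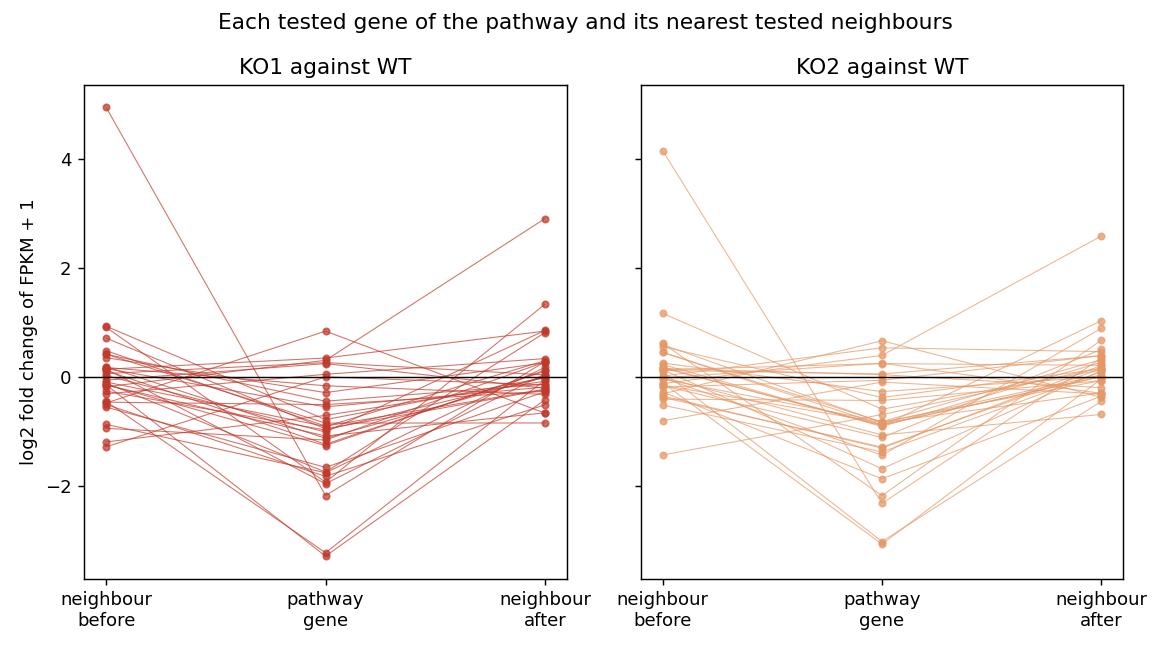
Log2 fold change of each tested gene of the pathway and of its nearest tested neighbours before and after it on the chromosome, joined by a line, for KO1 and KO2 against WT. The middle column is shifted down while both outer columns centre near 0.

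Lists of genes from the same and adjoining pathways moved in both directions, and their counts stand beside 31.9% lower and 35.6% higher in KO1 and 26.6% lower and 38.1% higher in KO2 over all tested genes. Named genes are those with the smallest p unless stated, with means ± SD over 3 libraries. Of 14 tested isoforms of the same steps and related genes outside the 37, 7 were higher and 2 lower in KO1, while in KO2 10 were higher and 1 lower, with medians of 0.20 and 0.38. SLC2A4, not among those with the smallest p, is counted as higher in both lines. It was at 0.517 ± 0.0496 FPKM in WT and passed the filter only through edited libraries, so that filter favoured a rise. BSG, which encodes basigin, the chaperone of both monocarboxylate transporters, stood at 126 ± 0.567 FPKM in KO1 and 131 ± 3.37 FPKM in KO2, against 92.1 ± 1.02 FPKM in WT (SD, n = 3 each), and rose (0.44 in KO1 and 0.50 in KO2). BPGM, which diverts 1,3-bisphosphoglycerate, rose (0.53 in KO1 and 0.68 in KO2), as did SLC2A13, a myo-inositol carrier (1.11 in KO1 and 0.86 in KO2). Of 10 other tested glycogen genes, 3 rose and 3 fell in each line, with medians of -0.05 and -0.06. The primer gene GYG1 rose (0.51 in KO1 and 0.59 in KO2), while the phosphorylase kinase subunit gene PHKA2 (-0.56 in KO1 and -0.30 in KO2) and PPP1R3B, a glycogen-targeting phosphatase subunit (-0.61 in KO1 and -0.18 in KO2), fell. The KO2 fall of PPP1R3B was close to the threshold (adjusted p = 0.0414 in limma), and its KO2 libraries overlapped those of WT.

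In the pentose phosphate pathway, which leaves glycolysis at glucose 6-phosphate, 1 of 8 tested genes rose and 3 fell in each line (beside 31.9% lower in KO1 and 26.6% in KO2 over all tested genes), with medians of -0.08 and -0.01. TKT, transketolase, stood at 127 ± 4.75 FPKM in KO1 and 152 ± 6.12 FPKM in KO2, against 242 ± 6.22 FPKM in WT, and fell (-0.92 in KO1 and -0.67 in KO2). RPIA, ribose phosphate isomerase, rose (0.24 in KO1 and 0.28 in KO2), and RPE, the epimerase, fell in KO2 (-0.41) and did not pass in KO1 (-0.03, adjusted p = 0.697). Of 11 genes of mitochondrial pyruvate entry, 4 were higher and 5 lower in KO1, while in KO2 6 were higher and 3 lower, of which the higher share in KO1 and the lower share in KO2 were near those of all tested genes, with medians of -0.10 and 0.18. PDP1, the phosphatase that opposes the pyruvate dehydrogenase kinases, was at 15.8 ± 0.743 FPKM in KO1 and 15.3 ± 1.19 FPKM in KO2, against 9.38 ± 0.0798 FPKM in WT, and rose (0.69 in KO1 and 0.65 in KO2), as did DLAT, a subunit of the dehydrogenase (0.47 in KO1 and 0.51 in KO2). PDHA1, which the kinases phosphorylate, fell in KO1 (-0.35) and did not pass in KO2 (0.07, adjusted p = 0.169), and PDP2, the other phosphatase, fell (-0.41 in KO1 and -0.25 in KO2).

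In the tricarboxylic acid cycle, 6 of 17 genes fell and 1 rose in KO1, 7 fell and 2 rose in KO2, and the median was -0.10 in both. The share that fell in KO1 was near the 31.9% of all tested genes. The genes with the smallest p were IDH2 (-0.69 in KO1 and -0.54 in KO2), IDH3G (-0.79 in KO1 and -0.50 in KO2) and SDHA (-0.62 in KO1 and -0.50 in KO2), all lower. Not every dehydrogenase gene of the cycle was lower. OGDH, named after its values were seen, rose (0.23 in KO1 and 0.32 in KO2), and others, such as MDH2, did not pass in either line. Of 5 genes of the serine branch, which draws on 3-phosphoglycerate, 2 were higher and 1 lower in KO1, while in KO2 3 were higher and 1 lower, with medians of 0.15 and 0.22. PHGDH, its first enzyme, was at 131 ± 2.2 FPKM in KO1 and 95 ± 3.06 FPKM in KO2, against 71.4 ± 5.5 FPKM in WT, and rose (0.87 in KO1 and 0.41 in KO2), PSAT1 rose (0.69 in KO1 and 0.43 in KO2), and SHMT1 fell (-0.33 in KO1 and -0.14 in KO2).

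Regulators of the pathway were read at the transcript level only. Counts in the 3 lists below stand beside 31.9% lower and 35.6% higher in KO1 over all tested genes. In KO2 these shares were 26.6% lower and 38.1% higher. Of 8 tested genes of the HIF factors and oxygen sensing, 1 was higher and 5 lower in KO1, while in KO2 2 were higher and 5 lower, with medians of -0.26 and -0.21. HIF1A, named after its values were seen, which is controlled mainly through protein stability, was at 45.6 ± 2.11 FPKM in KO1 and 48.4 ± 0.94 FPKM in KO2, against 56 ± 2.76 FPKM in WT (log2 fold changes -0.29 in KO1 and -0.20 in KO2). The prolyl hydroxylase gene EGLN1, itself HIF-inducible, was at 9.66 ± 0.558 FPKM in KO1 and 11.1 ± 1.01 FPKM in KO2, against 25.9 ± 2.67 FPKM in WT, and fell (-1.33 in KO1 and -1.15 in KO2), and VHL, which marks HIF for destruction, rose (0.33 in KO1 and 0.39 in KO2). EPAS1, the gene of HIF2A, fell (-0.99 in KO1 and -0.59 in KO2), as did EGLN3 (-0.27 in KO1 and -1.38 in KO2). The KO1 fall of EGLN3 was close to the threshold (adjusted p = 0.0473 in limma). EGLN3 was lower in KO2 than in KO1 (-1.11, adjusted p = 4.21e-05 in limma). EPAS1 was at 0.417 ± 0.113 FPKM in KO1 and 0.868 ± 0.0368 FPKM in KO2, against 1.81 ± 0.1 FPKM in WT. It passed the filter through the WT libraries alone, so that filter favoured its fall, which is counted among the 5 in each line. Of 12 tested HIF-induced genes outside glycolysis, 11 fell and 1, AK4, named after its values were seen, rose in each line, with a median of -1.95 in KO1 and -1.68 in KO2. Those with the smallest p were NDRG1 (-2.24 in KO1 and -2.06 in KO2), P4HA1 (-1.95 in KO1 and -1.70 in KO2) and BNIP3 (-2.64 in KO1 and -2.38 in KO2). Among 8 tested regulators of glycolytic genes, MYCN (3.55 in KO1 and 2.75 in KO2) and MYC (0.98 in KO1 and 1.01 in KO2) rose. In all, 3 of the 8 were higher and 2 lower in KO1, while in KO2 4 were higher and 1 lower, with medians of 0.05 and 0.21. The higher share in KO1 was near the 35.6% of all tested genes. The part of any of these genes in the levels of the pathway was not tested.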

How the data were processed

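RNA-seq libraries of Jurkat cells, 3 each of the lines KO1, KO2 and WT, took their groups and replicate numbers from their titles. FPKM of each gene symbol in each library stand in 1 table, as the authors deposited it. The submitters' processing notes list hg19, Cufflinks 2.2.1, STAR 2.5.0b and bedtools 2.7.0 with no role or order, and library preparation used a poly(A) kit, per the labels' protocols. How reads shared between copies or strands were counted was not stated, so 13 of the 37 genes with named pseudogenes and 18 of 37 with exons overlapped on the other strand in GENCODE 29 carry that uncertainty.

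Of 26228 rows, 38 held text and were left out. The rest were transformed to log2(FPKM + 1), and 11737 genes with at least 1 FPKM in 3 or more libraries were fitted in limma 3.58.1 (R 4.3.3), with 1 mean per line, all 9 libraries in 1 fit, a mean-variance trend and Benjamini-Hochberg adjustment. Every adjusted p in the text comes from this fit or from an alternative of it, and the fit was tested on simulated data. Correlations of log2 values across genes ran from 0.989 to 0.994 within lines and from 0.931 to 0.982 between lines, and 0 pairs of libraries were identical. FPKM keep no read totals, so no counting interval is given.

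All 37 genes are described, and from each other list the genes with the smallest p in each comparison with WT, up to 3. Some genes that this rule or the marker lists hold are not reported here by name. The genes, lists and tests were chosen with earlier results of these data known, so no list is independent evidence. Alternatives covered scaling between libraries, filter, pseudocount, libraries in the fit, moderation, replicate block, threshold and leaving out each library.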

Additional observations from a re-analysis of the deposited data

Results flagged for a closer look

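Because KO1 and KO2 were set against the same WT libraries, the difference between their effects is the direct comparison of KO2 with KO1 in limma, and 12 of the 34 tested genes of the pathway passed it, 9 higher and 3 lower in KO2, beside 18.3% higher and 12.4% lower over all tested genes, so passing it is common in these data. On the log2 scale the enolase gene ENO2 was 0.38, PGK1 0.37, PDK2 0.34, PDK3 0.33, the glucose carrier gene SLC2A1 0.31, the lactate exporter gene SLC16A3 0.28, PFKFB3 0.24, PGAM1 0.19 and GPI 0.15 higher in KO2 than in KO1. The values of PDK1 (-0.25), SLC16A1 (-0.18) and LDHB (-0.11) were lower in KO2. For all of these but LDHB, PDK2 and SLC16A1, both edited lines were below WT, so a higher value in KO2 was a smaller fall, and the lower value of PDK1 a deeper one. SLC16A1 rose in both lines, less in KO2. With 3 libraries per line, a split of the libraries within 1 line was not tested.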

How the results depend on the processing

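Across the 20 alternatives, 29 of the 34 tested genes kept direction and side of the threshold in KO1 and 29 in KO2, and 14 did in KO2 against KO1. Genes lower than WT numbered 25 to 27 in KO1 and 24 to 26 in KO2, and genes higher 4 to 5 in each line. Leaving out 1 library at a time gave 25 to 26 lower and 4 to 5 higher in KO1, 24 to 25 lower and 5 higher in KO2, and 0 to 3 lower and 6 to 11 higher in KO2 against KO1. At an adjusted p of 0.01, 0 genes were lower and 5 higher in KO2 against KO1, and over all genes 2100 passed in place of 3596. Quantile normalization moved the median in KO1 to -0.87. It gave LDHB 0.085, PDK2 -0.017 and PFKM -0.13 in KO2 against WT, and ENO1 -0.028, GAPDH 0.0, LDHA -0.047, PFKL -0.021, PGM2 -0.027 and PKM -0.010 in KO2 against KO1, opposite in sign or without one. Median centring turned PFKM to -0.0075 in KO2 against WT, and ENO1 to -0.015, GAPDH to -0.019, LDHA to -0.012, PFKL to -0.025 and PGM2 to -0.028 in KO2 against KO1. The cause of these shifts was not tested. With 1 library left out, PFKFB2 ran from -0.075 to 0.048 in KO1 against WT, PDK2 from -0.010 to 0.16 and PFKM from -0.039 to 0.092 in KO2 against WT. In KO2 against KO1, PGM2 ran from -0.020 to 0.049, GAPDH from -0.0058 to 0.033, PFKL from -0.051 to 0.065, SLC2A3 from -0.10 to 0.047, ENO1 from -0.0025 to 0.056, LDHA from -0.0032 to 0.053 and PYGB from -0.071 to 0.022.

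Replicate numbers are shared across lines, but 3 of 9 same-number pairs of libraries correlated above 0.1 in their deviations from the line means (range -0.287 to 0.318), beside 4 of 18 pairs with different numbers, so the numbers were not taken to pair libraries. A replicate block gave 25 lower and 5 higher in KO1, 25 lower and 5 higher in KO2, and 3 lower and 9 higher in KO2 against KO1, where ENO3 then passed (0.28, adjusted p = 0.0342 in limma) and PDK2 did not (adjusted p = 0.07). FPKM carry no read totals, so counting error at low levels, as for PFKM and PYGL, is unknown.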
